A study of Mus musculus with 6 samples.

Results

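Uncharacterized transcripts of mouse liver were followed in mice in which Rnf10, the gene of a RING-type E3 ubiquitin ligase, was silenced. The 6 transcripts are Gm42047, Gm43305, Gm15622, 0610005C13Rik, 0610031O16Rik and 1010001N08Rik, out of 55487 genes in the count table. They were taken by symbol from a list described as strongly shifted and drawn up with results of these same mice known. Their differences are therefore given as a description, without a test. Liver RNA was sequenced from 3 GalNAc-siNC mice and 3 GalNAc-siRnf10 mice, with 1 library per mouse. All 6 were wild type, ate normal chow and were 17 weeks old when the liver was taken. The study's methods describe male C57BL/6J mice injected under the skin. GalNAc-siNC is a control siRNA and GalNAc-siRnf10 an siRNA against Rnf10, both joined to N-acetylgalactosamine, a sugar that hepatocytes take up through the asialoglycoprotein receptor. The siRNA is thus directed to hepatocytes, while the RNA came from whole liver.

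Symbols that begin with Gm or end in Rik are placeholders for gene models without a functional name, and many of them are long noncoding RNAs. Such RNAs often lie on the strand opposite to a protein-coding gene or share its promoter region, and many of them begin inside old retroviral insertions. An endogenous retrovirus is a copy of a retrovirus that entered the germ line. It has an internal part between long terminal repeats, of which the upstream one holds the promoter. The mouse genome carries many near-identical copies of such elements.

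By position the 6 transcripts fall into those apart from any coding exon (Gm42047 and Gm43305) and those antisense to a coding gene (the other 4). On GRCm38, Gm42047 (ENSMUSG00000110631) lies on chromosome 8 from 121833247 to 121841178 on the plus strand, with 4 exon blocks and 5647 exonic bases, and GENCODE lists it as a long intergenic noncoding RNA. Gm43305 (ENSMUSG00000105703) lies on chromosome 14 from 54292443 to 54297456 on the minus strand, as 1 exon block of 5014 bases, and is listed as a processed transcript. Both held long open frames. The longest frame from an ATG to a stop codon spanned 393 codons in Gm42047 and 561 codons in Gm43305, against 36 to 110 codons in the other 4 transcripts. The longest transcripts of these 2 genes had 4988 and 4901 bases, against 1429 to 2434 in the other 4. A longer transcript leaves more room for a frame, so the frame lengths are not like for like.

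Gm42047 and Gm43305 shared an exact stretch of 22 bases close to the start of a transcript of each, and the first 60 bases of both are shown because this stretch links 2 loci on different chromosomes. The capitals mark the shared stretch, which began at base 27 of the Gm42047 transcript and at base 1 of the Gm43305 transcript. The sequences come from chr8:121833247-121833306 on the plus strand and chr14:54297284-54297343 on the minus strand of GRCm38.
Gm42047: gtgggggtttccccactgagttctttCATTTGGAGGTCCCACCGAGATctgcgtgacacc
Gm43305: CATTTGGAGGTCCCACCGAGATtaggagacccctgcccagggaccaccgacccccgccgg
Of all annotated transcripts, those of 3 genes held the 22 bases on the transcribed strand, and the third gene was Gm42031. Gm42031 had 0 to 5 counts in each mouse and did not pass the filter on low counts, so the stretch was found in genes that differed and in a gene that was barely detected.

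Gm43305 also held a repeat, with 1 copy across its start and the other inside the gene model close to its end. The 300 bases around its RefSeq start, shown as the region from which transcription of the gene is annotated to begin, recurred without a mismatch 4969 bases further along the transcript's direction, at chr14:54292470-54292769. The window is chr14:54297439-54297738 on the minus strand of GRCm38.p6, from RefSeq, and the capitals mark a TATAAA hexamer at base 224.
Gm43305 promoter: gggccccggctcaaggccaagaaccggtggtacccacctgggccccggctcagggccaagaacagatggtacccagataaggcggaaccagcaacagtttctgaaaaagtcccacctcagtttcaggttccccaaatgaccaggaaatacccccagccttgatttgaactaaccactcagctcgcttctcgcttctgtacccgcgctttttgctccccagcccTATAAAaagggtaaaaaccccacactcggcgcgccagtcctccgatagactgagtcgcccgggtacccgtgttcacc
TATAAA was present on either strand in 13.62% of 32817 promoter windows of the same length. AGAACA, a motif of the glucocorticoid receptor, was present once in the Gm43305 window, at base 59, and in 18.97% of all windows. The CCAAT box, the E-box (CACGTG), the D-box of the clock (TTATGTAA), the receptor motif AGGTCA and the HNF1 core motif GTTAAT were not in it. Of the other transcripts, 0610005C13Rik and 0610031O16Rik had a promoter window. The 0610005C13Rik window held none of the 7 motifs searched, and the 0610031O16Rik window held CCAAT on the minus strand, as 37.39% of windows do on either strand. These matches are letters in a window and say nothing of binding. Repeats on both sides of an internal part with a long frame, as in Gm43305, are the layout of an endogenous retrovirus. No annotation of repeats was used, and neither Gm43305 nor Gm42047 was assigned to a family.

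The targeted gene was checked first. Rnf10, on the minus strand of chromosome 5, had 130, 153 and 136 counts per 1000000 counts of a library (CPM) in the GalNAc-siNC mice and 58.6, 61.4 and 60.4 in the GalNAc-siRnf10 mice. Library sizes were scaled with the factors of edgeR (trimmed mean of M-values). The groups did not overlap, and the log2 fold change was -1.22 ± 0.07 (SE, edgeR's quasi-likelihood test, adjusted p = 3.29e-09). Total counts ranged from 26854377 to 33058645 per mouse, and 3 counts, the limit of detection used here, were 9.07e-06% to 1.12e-05% of a library. The sample labels give no batch that differs between the groups, so a batch difference could not be tested. Of 14046 genes tested, 1965 were called at an adjusted p under 0.05 (943 higher and 1022 lower in GalNAc-siRnf10 mice), which is 14.0%. GalNAc-siNC mouse 1 stood apart from its group. The chi-square of its raw counts was 30.6 and 29.8 per gene against the other GalNAc-siNC mice, which differed from each other by 10.4, and it was 4.71 to 5.40 within the GalNAc-siRnf10 group. Without this mouse 2864 genes were called. The log2 fold changes were then -1.27 for Rnf10, 3.76 for Gm42047, 3.04 for Gm43305, 3.08 for Gm15622, 1.00 for 1010001N08Rik, 0.27 for 0610005C13Rik and 0.29 for 0610031O16Rik. The values that follow are from all 6 mice unless a mouse is named as left out.

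Gm42047 was the member with the largest difference. Its raw counts were 164, 100 and 145 in the GalNAc-siNC mice and 1524, 1732 and 1567 in the GalNAc-siRnf10 mice. Scaled for library size, this was 4.81, 3.48 and 4.83 CPM against 58.1, 55.8 and 56.2. The lowest GalNAc-siRnf10 mouse was far above the highest GalNAc-siNC mouse, and the mice of each group lay close together. The means were 4.37 ± 0.78 and 56.7 ± 1.19 CPM (SD, n = 3 each), a ratio of 12.97 and a fitted log2 fold change of 3.69. This was the third highest log2 fold change of the 14046 genes.

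Gm43305 differed in the same direction and was also low in the control mice. Raw counts were 247, 204 and 213 in the GalNAc-siNC mice and 1478, 1869 and 1641 in the GalNAc-siRnf10 mice. The levels were 7.25, 7.09 and 7.09 CPM against 56.3, 60.2 and 58.9. The control mice were nearly equal, and no GalNAc-siRnf10 mouse came near them. The means were 7.14 ± 0.09 and 58.5 ± 2.00 CPM (SD, n = 3 each), a ratio of 8.19 and a log2 fold change of 3.03, rank 9 of the tested genes.

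**Figure D1:**
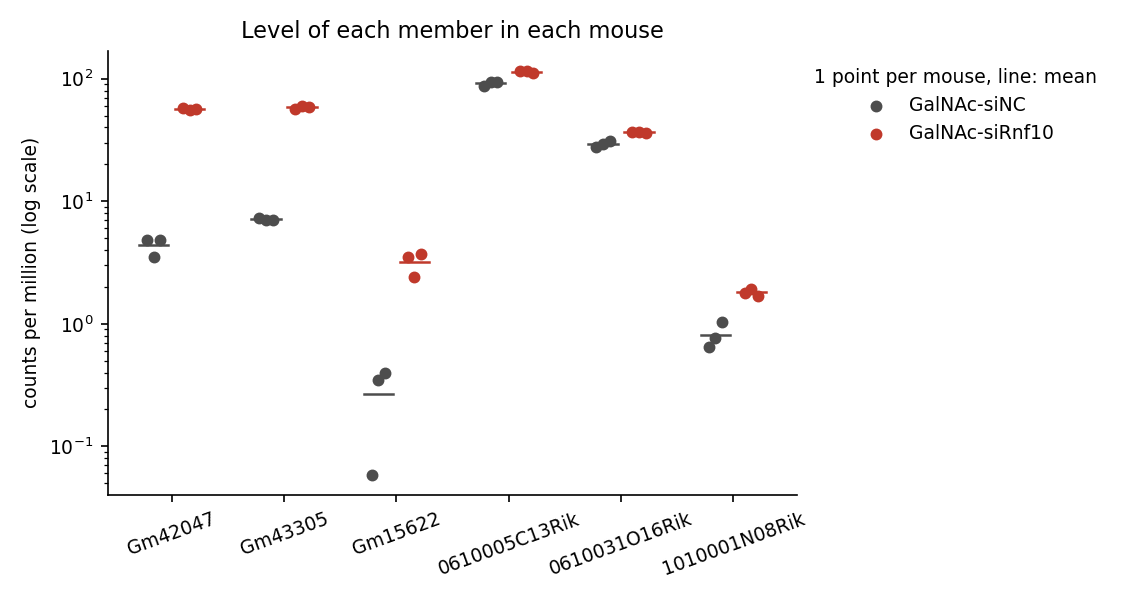
Level of each of the 6 transcripts in CPM (log axis), with 1 point per mouse and a line at the group mean. Red points (GalNAc-siRnf10) lie above grey points (GalNAc-siNC) for all 6 transcripts, by a ratio of means from 1.24 for 0610005C13Rik to 12.97 for Gm42047.

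Gm15622 (ENSMUSG00000085834) is an antisense RNA with 2 exon blocks and 1464 exonic bases on the plus strand of chromosome 13, from 93625382 to 93628633. It lies within Bhmt, which is transcribed from the minus strand and encodes betaine-homocysteine methyltransferase, an enzyme that remethylates homocysteine to methionine in liver. Gm15622 had 2, 10 and 12 raw counts in the GalNAc-siNC mice and 92, 75 and 103 in the GalNAc-siRnf10 mice. In GalNAc-siNC mouse 1 it was under the limit of 3 counts, and in the GalNAc-siRnf10 mice it was clearly detected. The levels were 0.0587, 0.348 and 0.400 CPM against 3.51, 2.42 and 3.70. The means were 0.269 ± 0.184 and 3.21 ± 0.69 (SD, n = 3 each), a ratio of 11.9 and a log2 fold change of 3.60, rank 4. With 2 to 12 counts in the control libraries the size of this ratio is the least certain of the 6.

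1010001N08Rik (ENSMUSG00000097222) is listed by RefSeq as Gata6os, the opposite strand of Gata6, a zinc-finger transcription factor. It has 8 exon blocks and 3035 exonic bases on the minus strand of chromosome 18, from 10987944 to 11052567, and it begins next to the start of Gata6, in the other direction. Raw counts were 22, 22 and 31 in the GalNAc-siNC mice and 47, 60 and 47 in the GalNAc-siRnf10 mice. The levels were 0.646, 0.765 and 1.03 CPM against 1.79, 1.93 and 1.69. The groups did not overlap, although both were low. The means were 0.814 ± 0.198 and 1.80 ± 0.12 (SD, n = 3 each), a ratio of 2.22 and a log2 fold change of 1.15, rank 147.

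0610005C13Rik (ENSMUSG00000109644) has 5 exon blocks, 3583 exonic bases and 11 transcripts on the minus strand of chromosome 7, from 45567794 to 45575327, opposite to Bcat2, the mitochondrial branched-chain aminotransferase. It was the most abundant of the 6. Its levels were 87.8, 94.9 and 94.7 CPM in the GalNAc-siNC mice and 116, 116 and 111 in the GalNAc-siRnf10 mice, from 2729 to 3590 raw counts per library. The groups lay apart by more than their spread but by a small step. The means were 92.5 ± 4.04 and 114 ± 2.49 (SD, n = 3 each), a ratio of 1.24 and a log2 fold change of 0.31.

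0610031O16Rik (ENSMUSG00000099146) has 8 exon blocks and 2482 exonic bases on the minus strand of chromosome 3, from 138210716 to 138240405, and spans the whole of Adh7, an alcohol dehydrogenase that also oxidizes retinol. Its levels were 27.6, 29.2 and 30.8 CPM in the GalNAc-siNC mice and 36.6, 37.1 and 36.3 in the GalNAc-siRnf10 mice, from 840 to 1151 raw counts per library. No mouse of one group reached the other. The means were 29.2 ± 1.596 and 36.7 ± 0.40 (SD, n = 3 each), a ratio of 1.26 and a log2 fold change of 0.33.

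All 6 transcripts passed the filter on low counts, and in all 6 every GalNAc-siRnf10 mouse was above every GalNAc-siNC mouse. The same held for 2314 of the 14046 tested genes (16.5%), and since the 6 had been selected on fold change, nothing is read from their count. They had been described as strongly shifted, and this holds to very different degrees. In absolute log2 fold change Gm42047, Gm15622 and Gm43305 exceeded more than 99.9% of tested genes, 1010001N08Rik exceeded 98.2%, and 0610031O16Rik and 0610005C13Rik exceeded 73.0% and 70.5%. The last 2 showed narrow groups rather than large shifts, with coefficients of variation of 4.37% and 5.47% among the control mice of 0610005C13Rik and 0610031O16Rik.

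**Figure D2:**
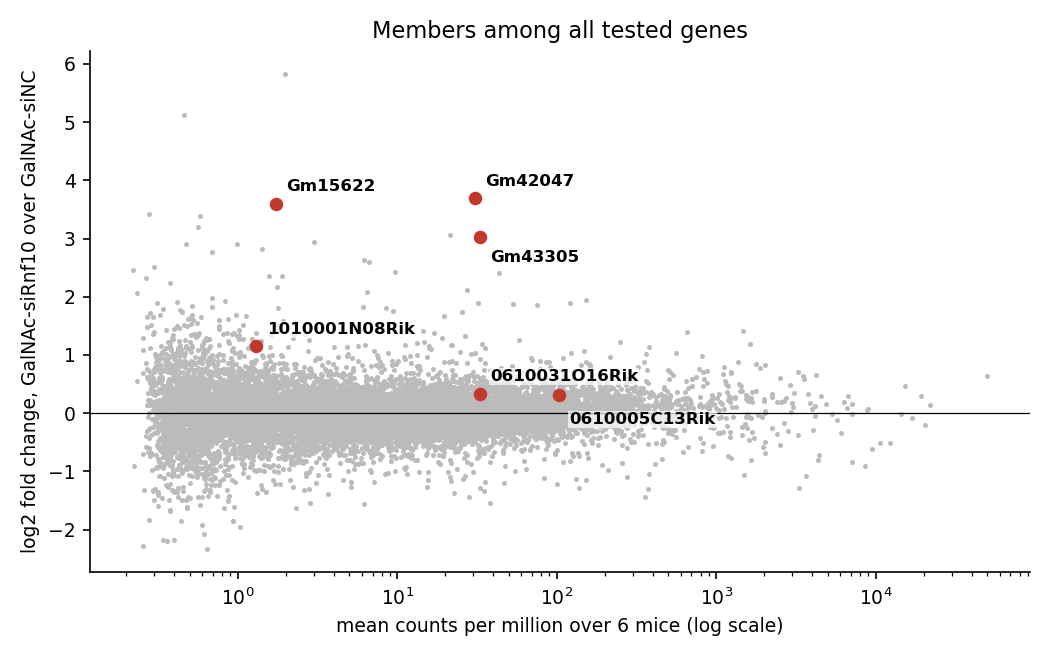
Log2 fold change (GalNAc-siRnf10 over GalNAc-siNC) against mean CPM over the 6 mice (log axis), with 1 grey point for each of 14046 tested genes and the 6 transcripts in red. Gm42047, Gm15622 and Gm43305 lie at 3.69, 3.60 and 3.03, above nearly all genes, while 0610005C13Rik and 0610031O16Rik lie within the grey cloud at 0.31 and 0.33.

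Per kilobase of exon, the order of the 6 levels differed between the groups. In GalNAc-siNC mice the order was 0610005C13Rik at 25.8 ± 1.13 CPM per kb, 0610031O16Rik at 11.8 ± 0.64, Gm43305 at 1.42 ± 0.02, Gm42047 at 0.774 ± 0.137, 1010001N08Rik at 0.268 ± 0.065 and Gm15622 at 0.184 ± 0.125 (SD, n = 3). The last 2 overlapped between mice and did not differ beyond their spread, and each other pair of neighbours in this order was apart in every mouse. In GalNAc-siRnf10 mice 0610005C13Rik stood at 31.9 ± 0.70, 0610031O16Rik at 14.8 ± 0.16, Gm43305 at 11.7 ± 0.40, Gm42047 at 10.04 ± 0.21, Gm15622 at 2.19 ± 0.47 and 1010001N08Rik at 0.594 ± 0.041, without overlap between neighbours. By this level Gm42047 was at rank 10370 among the 22970 genes detected in GalNAc-siNC mice and at rank 2959 in GalNAc-siRnf10 mice.

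Near-identical sequence elsewhere in the annotation was listed for each transcript, because reads from such copies cannot be placed with certainty. Of all 150-base windows of the Gm42047 transcripts, the length of 1 read, 35.21% also occurred on the same strand in transcripts of Gm47761, Gm43549, Gm47939 or Gm48362. For Gm43305 the share was 2.883%, counting both strands. These shares cover annotated transcripts of other genes only. Copies outside the annotation, and the repeat of Gm43305 itself, were not counted. For 0610005C13Rik 3.718% of windows occurred on the opposite strand in Bcat2 transcripts, and for the other 3 transcripts no window did. Alignment at 90% identity or more over at least 500 bases found 6 annotated genes similar to Gm42047 and 4 similar to Gm43305, and none for the other 4 transcripts.

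The copies themselves had almost no counts in the table. Gm48362, with 98.4% identity to Gm42047 over 3209 bases, had 0 counts in each mouse, as had Gm47761 and Gm46349. Gm47939 reached 2 counts and Gm43549 reached 8 counts in a single GalNAc-siRnf10 mouse, and both were at 0 in the GalNAc-siNC mice. Of the genes similar to Gm43305, Gm46223 was at 0, Gm42031 had at most 5 counts and Gm4316 had at most 17 counts, and Gm26880 was not among the genes of the table. Brip1os, which shares a stretch of 567 bases with Gm42047 at 93.1% identity, was the exception. It had 684 to 942 counts, the groups overlapped, and its log2 fold change was 0.16 ± 0.09 (SE, edgeR's quasi-likelihood test, adjusted p = 0.269). How reads that fit several places were counted is not given in the sources used here. The part of such reads in the values of Gm42047 was therefore not tested. If such reads were left out, a transcribed copy could also be at 0, so the low counts do not show that the copies were silent.

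**Figure D3:**
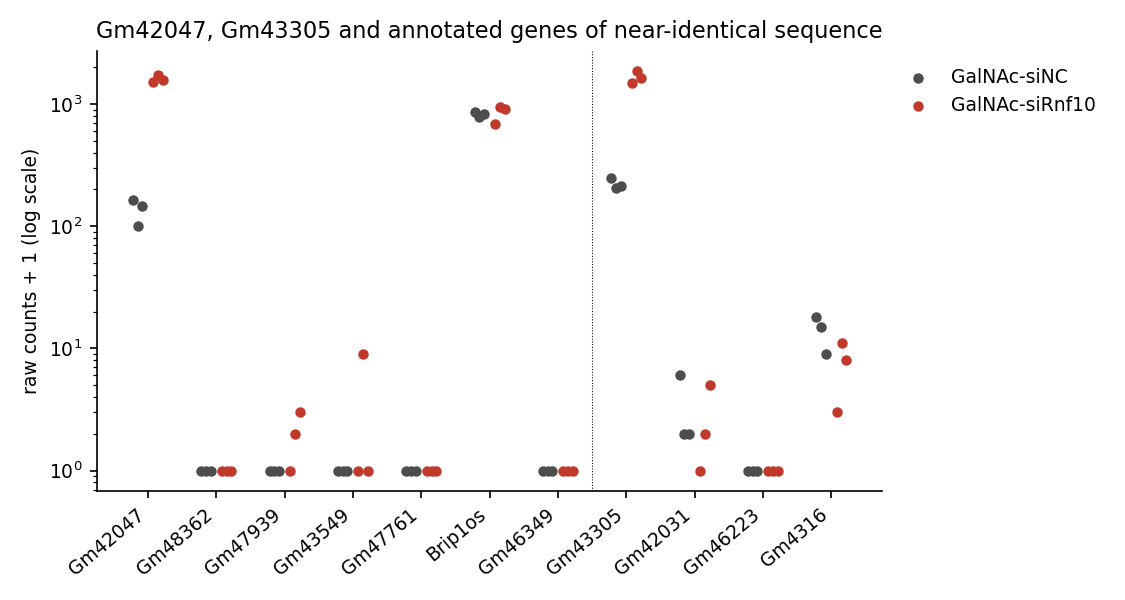
Raw counts plus 1 (log axis) in each mouse for Gm42047 and its 6 similar annotated genes (left of the dotted line) and for Gm43305 and the 3 of its similar genes that are in the table (right). Gm42047 and Gm43305 lie apart between the groups, Brip1os overlaps between them, and the other genes have at most 17 counts.

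Reads of overlapping genes are a second source of uncertainty for the antisense transcripts. The libraries were stranded, but whether the counting used the strand is not given in the sources used here, so shared exon bases could hold reads of either gene. Gm15622 shares 187 exon bases (12.8% of its own) with Bhmt, whose level was 2915 ± 67.1 CPM in GalNAc-siNC mice and 2943 ± 12.0 in GalNAc-siRnf10 mice (SD, n = 3 each). Bhmt had a log2 fold change of 0.01 ± 0.05 (SE, edgeR, adjusted p = 0.884), next to 3.60 for the RNA antisense to it. The sign of the Bhmt value turned to -0.0064 without GalNAc-siNC mouse 1.

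0610005C13Rik shares 622 exon bases (17.4%) with Bcat2, which had 21.71 ± 2.07 and 21.998 ± 0.234 CPM and a log2 fold change of 0.02 ± 0.09 (edgeR, adjusted p = 0.919). That value turned to -0.055 without GalNAc-siNC mouse 1. 1010001N08Rik shares 93 exon bases (3.06%) with Gata6. Gata6 had 5.84, 8.20 and 5.50 CPM in GalNAc-siNC mice and 5.45, 5.41 and 4.88 in GalNAc-siRnf10 mice. Its groups did not overlap, but the gap was narrow and the log2 fold change of -0.31 ± 0.16 did not pass the test (edgeR, adjusted p = 0.241). It was -0.11 (adjusted p = 0.706 in edgeR) without GalNAc-siNC mouse 2, the highest of the 6.

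Adh7 differed from these partners. It shares 108 exon bases (4.35%) with 0610031O16Rik and had 30.8, 25.2 and 28.3 CPM in GalNAc-siNC mice and 35.3, 38.3 and 36.9 in GalNAc-siRnf10 mice. It rose by a log2 fold change of 0.39 ± 0.09 (SE, edgeR's quasi-likelihood test, adjusted p = 0.0053), close to the 0.33 of 0610031O16Rik. 4930579F01Rik, on the same strand as 0610031O16Rik and sharing 288 exon bases with it, had 0 to 10 counts and did not pass the filter.

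**Figure D4:**
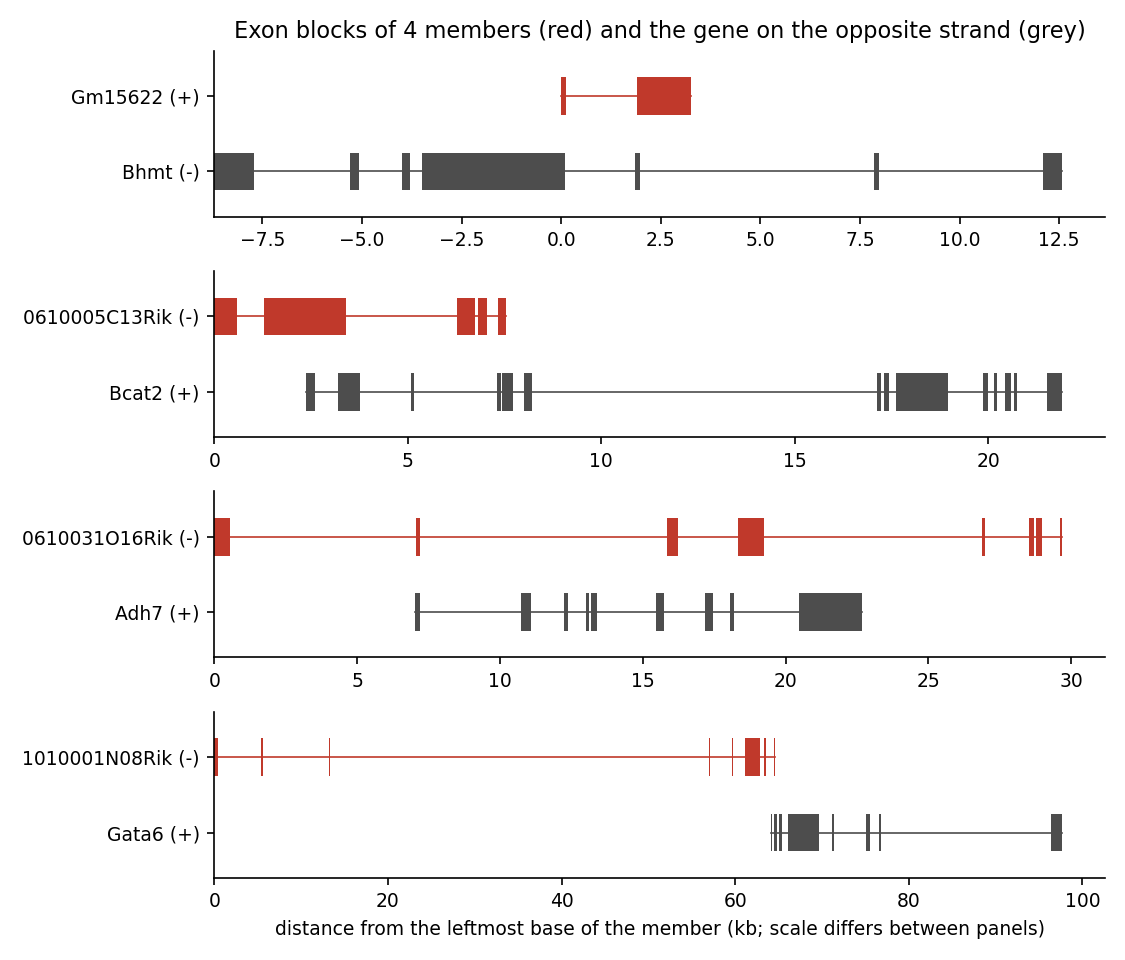
Exon blocks (boxes) and spans (lines) of the 4 antisense transcripts in red and of the coding gene on the opposite strand in grey, by distance in kb from the leftmost base of the transcript, with the strand in parentheses. Gm15622 lies inside Bhmt, 0610031O16Rik spans Adh7, and 1010001N08Rik meets Gata6 where both begin.

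The genes around the 6 loci were not used to choose the transcripts, so they could be tested. Within 100 kb of a member's span lay 78 genes, of which 24 passed the filter and 3 were called (12.5%, against 14.0% of all tested genes). In this window the share was thus close to the background, and other windows are given in the closing section. Of the 20 tested neighbours that share no exon bases with a member, 2 were called.

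No neighbour of Gm42047 was called. Klhdc4, 3678 bases to its left on the opposite strand, had 14.6 ± 1.33 and 14.7 ± 0.14 CPM and a log2 fold change of 0.01 ± 0.10 (edgeR, adjusted p = 0.950). Slc7a5, a transporter of large neutral amino acids 39972 bases to the right, had a log2 fold change of -0.36 ± 0.23 (adjusted p = 0.341 in the same fit). Gm20388, whose span covers Gm42047, was at 0 in each mouse.

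No neighbour of Gm43305 was called either. Abhd4, 21806 bases to the left, had a log2 fold change of 0.05 ± 0.08 (edgeR, adjusted p = 0.717). Oxa1l, which inserts proteins into the inner mitochondrial membrane and lies 63378 bases to the right, had -0.01 ± 0.08 (edgeR, adjusted p = 0.953). Of 34 genes within 100 kb, 26 were joining or constant segments of the T cell receptor alpha chain, and 24 of these were at 0 in each mouse. T cell markers (7 genes, 1 of them tested and not called) summed to 4.53 to 5.43 CPM in GalNAc-siNC mice and 3.91 to 4.80 in GalNAc-siRnf10 mice.

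Beside Gm15622, Bhmt2, a paralog of Bhmt 27087 bases to the right, had a log2 fold change of 0.01 ± 0.06 (edgeR, adjusted p = 0.925). Jmy, 125574 bases away, was the nearest tested gene to the left. Hsd17b14 ends 42 bases to the left of 0610005C13Rik and had 0 to 4 counts, too few to be tested. The nearest tested genes beside 0610005C13Rik were Plekha4 on the left at 13565 bases (log2 fold change 0.39 ± 0.36, edgeR, adjusted p = 0.548) and Fgf21, a liver hormone gene, on the right at 38559 bases (-0.26 ± 0.45, adjusted p = 0.762). The nearest one to the left of 1010001N08Rik was Mib1, 169240 bases away.

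The called neighbours were near 0610031O16Rik and 0610005C13Rik. Adh1, the class I alcohol dehydrogenase, lies 20586 bases to the right of 0610031O16Rik and had 1141, 1149 and 1165 CPM in GalNAc-siNC mice and 1634, 1674 and 1591 in GalNAc-siRnf10 mice. It rose by a log2 fold change of 0.50 ± 0.05 (SE, edgeR, adjusted p = 1.47e-06). Adh7 was the second, and both were at least as far from 0 as 0610031O16Rik itself. On the left of 0610031O16Rik, Trmt10a at 50895 bases had 0.03 ± 0.15 (edgeR, adjusted p = 0.919).

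Nucb1, which encodes a calcium-binding Golgi protein, lies 57388 bases to the left of 0610005C13Rik and fell. It had 146, 186 and 156 CPM in GalNAc-siNC mice and 138, 138 and 136 in GalNAc-siRnf10 mice, and its log2 fold change was -0.25 ± 0.08 (edgeR, adjusted p = 0.0447). GalNAc-siNC mouse 2 was well above the other mice. This call was lost in DESeq2 (adjusted p = 0.0562) and on leaving out any mouse but GalNAc-siNC mouse 1, with a log2 fold change of -0.14 and an adjusted p of 0.145 without GalNAc-siNC mouse 2.

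**Figure D5:**
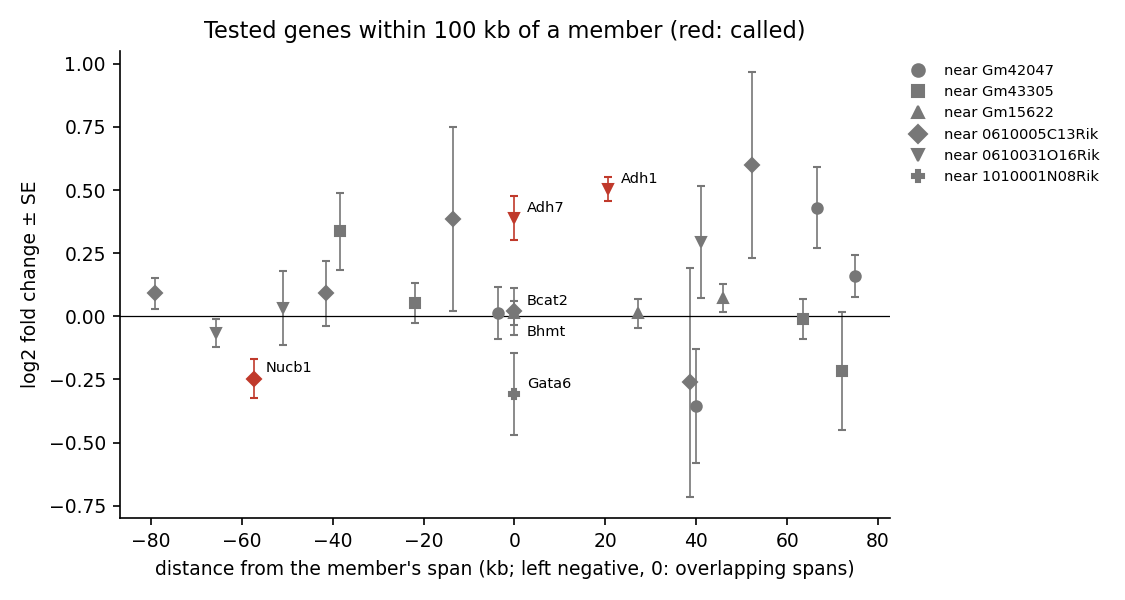
Log2 fold change with its SE for the 24 tested genes within 100 kb of a member, by distance from the member's span in kb (0 for overlapping spans), with a symbol for each member and called genes in red. Adh7 and Adh1 lie above 0 and Nucb1 below, and the other 21 genes were not called.

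Other gene models with placeholder names were read from the same fit. Of 29457 Gm and Rik genes other than the 6, 1597 passed the filter and 127 were called (82 higher and 45 lower), which is 7.95% against 14.0% of all tested genes. Many of these Gm and Rik genes had low counts and large SEs, which makes a call harder to reach, so the shares are not like for like. The difference between these shares was not tested. Their median log2 fold change was 0.08, and that of all tested genes was 0.00. Among all 1603 tested models of this kind, Gm42047, Gm15622 and Gm43305 were at ranks 1, 2 and 4 by log2 fold change.

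The members with large shifts were not alone in this class. Of those that averaged 50 normalized counts or more, with groups that did not overlap, A930033H14Rik rose most, from 64, 43 and 54 counts to 301, 280 and 327 (log2 fold change 2.63 ± 0.17, edgeR, adjusted p = 7.47e-09). It shares 15 exon bases with Rhobtb1 on the other strand. Gm15889 and Gm48199 followed with 2.18 ± 0.26 and 1.80 ± 0.27, and Gm15889 shares 535 exon bases with Gm15890. The largest falls were those of 1810064F22Rik (-1.31 ± 0.22), Gm20939 (-1.22 ± 0.25) and Gm32281 (-1.21 ± 0.25), all called by edgeR. 1810064F22Rik shares 194 exon bases with Zfp872.

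The genes whose levels ran most alike with each member were listed by Pearson's r of log2 CPM over the 6 libraries, among 10944 genes that averaged 50 normalized counts or more (10945 for 1010001N08Rik). The 6 libraries form 2 groups that lie apart for each member, so r mostly reflects that gap, and it is given as a description. For Gm42047 these were Tdo2, which opens the tryptophan ring (r = 0.9995), Sgk1, a serum- and glucocorticoid-regulated kinase, and Ugt2b5, a glucuronosyltransferase. For Gm43305 they were Etnppl, a phospho-lyase of phosphoethanolamine (r = 0.9995), Uox, the urate oxidase, and Mettl7a1. For both, 92 genes had an r over 0.99.

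For Gm15622 the list began with 9030616G12Rik (r = 0.9958), followed by Mrpl18, a protein of the mitochondrial ribosome, and Gstp1, a glutathione transferase. For 0610005C13Rik it was Sds, the serine dehydratase (r = 0.9987), Gnmt, the glycine N-methyltransferase, and Slc50a1, a sugar transporter. For 0610031O16Rik it was Azgp1 (r = 0.9974), Inmt, an N-methyltransferase of indoles, and Ces1f, a carboxylesterase. For 1010001N08Rik it was Etfa, a subunit of the electron transfer flavoprotein (r = 0.9987), Luc7l and Atp5c1, a subunit of ATP synthase. Between 17 and 28 genes had an r over 0.99 with each of these 4 transcripts.

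Some markers of liver cell types differed between the groups, and their counts stand beside the 14.0% of all tested genes that were called. Of 6 hepatocyte markers 5 rose (Alb, Ttr, Cyp2e1, Cps1 and Tat), and the 6 together summed to 56748 to 60534 CPM in GalNAc-siNC mice and 85376 to 88243 in GalNAc-siRnf10 mice. Most markers of the other lists were not called. Of 5 stellate cell markers Reln and Dcn rose (sum of the 5, 77.0 to 81.4 against 93.9 to 97.6), of 5 sinusoidal endothelial markers Clec4g and Lyve1 rose (sum of the 5, 56.6 to 56.8 against 58.7 to 62.2), and of 5 cholangiocyte markers Spp1 alone was called, and fell (sum of the 5, 68.5 to 69.9 against 37.8 to 38.9). None of 6 Kupffer cell markers was called (sum 171 to 198 against 180 to 191). Of 4 pancreatic markers only Cela1 passed the filter and was tested, and it rose (sum of the 4, 15.1 to 22.4 against 28.2 to 30.8), with Cpa1 at 0. The part of these shifts in the values of the 6 transcripts was not tested, and in whole liver fewer cells of a type and less RNA per cell cannot be told apart.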

How the data were processed

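Liver RNA was analysed from 6 mice, 3 per group. Per the labels, paired-end reads of stranded mRNA libraries were mapped to GRCm38 with HISAT2, and the authors deposited raw counts per Ensembl gene, without normalization. The counting tool, its strand setting, its treatment of reads that fit several places and the annotation release are not given in the sources used here. Gene symbols were matched by Ensembl ID (346 of 55487 IDs had none).

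Genes that passed filterByExpr were fitted with edgeR 4.0.16 (TMM scaling, robust quasi-likelihood test, treatment only), with Benjamini-Hochberg adjustment over all 14046 genes and a threshold of 0.05. Levels are CPM, and the biological coefficient of variation was 9.28%. The procedure was checked on simulated counts. Nothing in the labels ties mice of the groups together, and replicates of each group differed by more than sampling noise. A p-value sets the difference between the groups against the spread between these mice. Limits given as counts cover counting error only.

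Transcript sequences came from GENCODE M21 on GRCm38 and promoter windows (250 bases before to 50 after a start) from RefSeq on GRCm38.p6. Similar genes were sought with BLAST+ 2.17.0. Exact shared stretches of at least 17 bases and 150-base windows were compared as strings. The members, the marker lists and the tests were chosen with earlier results of these data known. The other genes named are Rnf10, genes that share exon bases or span with a member, the nearest tested gene on each side, called genes within 100 kb, the 3 genes most like each member, the 3 Gm or Rik genes with the largest rise and the 3 with the largest fall, genes of similar sequence, and Slc7a5 and the T cell receptor segments as neighbours. Alternatives were other scalings (RLE, upper quartile), no filter or at least 10 counts in every library, DESeq2 1.42.0, a replicate block, a stricter threshold, other windows, and leaving out each mouse. Markers of B cells, neutrophils, red blood cells, kidney, skeletal muscle and adipose tissue were also summed. Of the tested genes of these 6 lists only S100a9, of the neutrophil list, was called (lower), and Nphs1, Acta1, Myh4, Adipoq and Lep were at 0.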

Additional observations from a re-analysis of the deposited data

How the results depend on the processing

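All 6 transcripts kept their direction under every alternative that gave a value. They had been chosen with results of these mice known and their groups did not overlap, so the direction could hardly change. A kept direction is therefore no support. Leaving out single mice gave log2 fold changes of 3.55 to 3.76 for Gm42047, 3.01 to 3.06 for Gm43305 and 3.08 to 4.02 for Gm15622. The ranges were 1.00 to 1.35 for 1010001N08Rik, 0.27 to 0.32 for 0610005C13Rik and 0.29 to 0.37 for 0610031O16Rik. Gm15622 has no value with at least 10 counts in every library. The count of called genes was 1042 at an adjusted p under 0.01 and 1053 to 2864 when 1 mouse was left out (1053, 1128 and 1128 without GalNAc-siRnf10 mouse 1, 2 and 3, and the cause was not tested). For Gm and Rik genes it was 62 to 163, with 67, 65 and 62 without those mice. The highest counts, 2864 and 163, came without GalNAc-siNC mouse 1. Called neighbours numbered 10 of 55 tested within 250 kb, 2 of 15 within 50 kb, and 2 to 3 when 1 mouse was left out. The share within 250 kb was above the 14.0% of all tested genes, unlike that within 100 kb, and the difference was not tested. Without GalNAc-siNC mouse 1 the log2 fold changes of Bcat2 and Bhmt were -0.055 and -0.0064, and the cause was not tested. Over the mice left out, they ranged from -0.055 to 0.081 and from -0.0064 to 0.023. Mouse numbers are shared by the groups but do not pair the mice: the deviations of same-numbered mice correlated at -0.01, 0.05 and -0.06 over 11866 genes. With the replicate block 1816 genes, 109 Gm and Rik genes and 4 neighbours were called. DESeq2 called 1912 genes and no filter on low counts 2324.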
